A study of Mus musculus with 5 samples.

Results

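Ileal goblet cells were taken from the library of mouse ileum as 250 cell barcodes, out of 3342 ileal and 16535 barcodes deposited for the whole series. Barcodes with 300 or more genes and no more than 20% of mitochondrial UMIs were kept (unique molecular identifiers, each standing for 1 captured messenger RNA), 2522 in all. At least 3 UMIs of Epcam, Krt8 and Krt18 together then marked 1215 barcodes as epithelial. Goblet barcodes gave at least 2% of their UMIs to Muc2, Agr2, Spink4, Zg16 and Tff3 together, the 5 rule genes. Fewer than 5% of their UMIs were of genes named Defa (Paneth cell defensins), fewer than 5 of Chga and Chgb (enteroendocrine granins), and at most 1 of Ptprc (the pan-leukocyte CD45). These 250 were 20.6% of the ileal epithelial barcodes (exact 95% interval 18.3% to 23.0%). Intervals on shares are Clopper-Pearson and those on levels Poisson, and both cover counting error only.

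Goblet cells secrete the mucus that covers the gut surface. The mucin MUC2 is built as a long protein chain, folded and disulfide-bonded in the endoplasmic reticulum, coated with O-linked sugars in the Golgi, packed into granules and released. The cells come from dividing crypt progenitors that switch on the transcription factor ATOH1 and then SPDEF, and they mature while they move up the crypt and villus.

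The study made 1 droplet library (10x Genomics) from each of ileum, duodenum, jejunum, colon and rectum of mice, and its title ties stromal cells that express Gnai1, by way of c-Jun, to the forming of goblet and Paneth cells. Living cells had been sorted as those that excluded propidium iodide (5 µg/ml). Strain, age, sex, treatment and number of animals are not given in the sources used here, so no segment has a replicate and no comparison of segments carries a test. Library totals ran from 41953568 UMIs, in ileum, to 65546664.

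Within the 250, 56 barcodes were called dividing (at least 3 UMIs of Mki67 and Top2a together), 145 had no UMI of either gene, and 49 lay between. The dividing share was thus 22.4% (17.4% to 28.1%). Depth differed between these states, with a median of 43554 UMIs per barcode in the dividing ones against 20125 in those with none, and 0 dividing barcodes but 32 of those with none had under 2000. After thinning each barcode to 2000 UMIs, 12 of 213 (5.63%) still counted as dividing. By the same rule goblet barcodes numbered 47 in duodenum, 30 in jejunum, 333 in colon and 215 in rectum. No ileal goblet barcode shared its barcode string with another library, while 13 ileal barcodes of other kinds did.

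The label was checked against the given markers. Summed over all 250 barcodes, Zg16 stood at 76443 CPM (UMIs of a gene per 1000000 UMIs), Tff3 at 38338, Agr2 at 19943, Muc2 at 10021 and Clca1 at 6034. Of these Clca1 alone took no part in the choice of barcodes, and 82.8% of them carried a UMI of it, or 81.2% of the 213 that could be thinned to 2000 UMIs. Among 577 ileal immune barcodes (at least 2 Ptprc UMIs, none of Epcam, Krt8 or Krt18, median 3758 UMIs against 30365 in the goblet barcodes), which should lack the gene, the thinned share was 1.93%. Atoh1, the secretory fate regulator, was seen in 34.3% of thinned goblet barcodes and 0.176% of thinned immune ones. For Spdef the shares were 28.2% and 0.176%. Markers of lineages outside the epithelium, and of tuft cells, were low: summed B cell markers stood at 3.45 CPM, T cell markers at 0.45, myeloid at 4.20, stromal at 0.90, endothelial at 0.15, tuft at 6.45 and plasma cell markers at 59.9. Markers of other epithelial lineages were higher: absorptive genes summed to 3340 CPM in goblet and 42567 in other ileal epithelial barcodes, Paneth genes other than defensins to 1331 and 12820, and enteroendocrine genes to 415 and 1007. In goblet barcodes, but not in the other epithelial ones, nearly all of the enteroendocrine sum came from Sct (secretin). Sct was at 404 CPM in goblet, 154 in other epithelial and 4.06 in immune barcodes. After thinning Sct was seen in 42.3% of goblet and 0.527% of immune barcodes. The part of these markers in the results was not tested. At the 2% threshold, the 12 barcodes just inside held 2.14% to 2.99% of rule genes with Fcgbp at 2079 CPM and a median of 1612 UMIs. The 12 just outside held 1.07% to 1.93%, with Fcgbp at 1089 CPM and a median of 12890 UMIs.

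Mucus proteins made up a large part of what these barcodes expressed. The 5 rule genes took 16.8% of all ileal goblet UMIs, and Zg16 by itself 7.64%. Zg16 (mm10 chr7:127050156-127052675, by RefSeq's GRCm38.p6 annotation) encodes a lectin that binds the cell walls of Gram-positive bacteria. Tff3 (chr17:31125306-31129611), encodes a trefoil peptide that aids mucosal repair. Spink4, a small secreted inhibitor of serine proteases, stood at 23193 CPM. Agr2 (chr12:35992925-36004081), a disulfide isomerase needed to make mucin, and Muc2 (chr7:141690340-141754691), the gel-forming mucin itself, complete the rule genes. Outside the rule, Fcgbp (chr7:28071236-28120864), whose product is tied into the mucus, stood at 9833 CPM, and Clca1 (chr3:145004537-145032776) encodes a protease that loosens the mucus. The kallikrein Klk1 reached 1355 CPM and the resistin-like Retnlb 931 CPM. CPM is not scaled by gene length, so levels are compared between groups of barcodes and not between genes.

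Against the other 965 ileal epithelial barcodes, of which 17.1% were dividing, 304 of 11554 genes with at least 50 UMIs (2.63%) were at least 4-fold higher in goblet barcodes and 1116 (9.66%) at least 4-fold lower. As the barcodes were chosen on goblet genes, this is a description with no test. The widest gaps outside the rule genes were those of Clca1 (6034 CPM in goblet barcodes against 37.5 in the others, 161-fold) and Fcgbp (9833 against 131 CPM, 75.3-fold). Also among the 10 widest were Sval1 (44.6 against 0.978 CPM), Fer1l6, a member of the ferlin family of membrane-fusion proteins (112 against 1.57 CPM), the ectonucleotidase Enpp3 (102 against 1.45), the antitrypsin gene Serpina1b (379 against 5.4) and the secreted phospholipase Pla2g10 (111 against 2.34). The intestinal calpain Capn9 stood at 134 CPM in goblet barcodes and 2.89 in the others. Frmd3 was seen in goblet barcodes with 52 UMIs and in the other epithelium with 0, which makes it at least 61.1-fold higher against a floor of 3 counts. Of 15 secretory fate genes 8 passed the 4-fold line upward, among them Atoh1 (255 against 11.9 CPM), Spdef (182 against 8.59) and Foxa3 (200 against 19.1). So did 12 of 28 glycosylation genes, 7 of 12 granule genes and 7 of 32 genes of endoplasmic reticulum folding, such as the goblet-type unfolded protein sensor Ern2 (105 against 4.51 CPM) and the disulfide isomerase Txndc5 (1293 against 93.1). All 19 absorptive genes lay at least 4-fold lower, with the bile acid binding protein Fabp6 at 895 CPM in goblet and 21482 in other epithelial barcodes. The 10 widest gaps downward were 8 defensins, the Paneth gene Mptx2 and Retnla. By the rule, epithelial barcodes with 5% or more of defensin UMIs fall in the other group, so the defensin gaps follow from that choice.

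How dividing goblet barcodes differed from those with no Mki67 or Top2a UMI was then asked. UMIs were summed per library and state, and edgeR's quasi-likelihood test was run over ileum, duodenum, colon and rectum with library as a term. The 4 libraries held 56, 11, 75 and 26 dividing and 145, 30, 215 and 156 non-dividing barcodes in that order, and jejunum had too few dividing ones. Libraries of different segments are the only replicates here, so the spread they give includes that between segments. Of 10006 genes 1255 (12.5%) were higher in dividing barcodes and 1141 (11.4%) lower, at an adjusted p under 0.05. Further quantities moved with the states: depth, as given, the mitochondrial share, at a median of 5.92% in dividing and 3.78% in non-dividing ileal barcodes, and the mucus genes, which filled 8.96% of dividing and 22.3% of non-dividing ileal UMIs. With barcodes matched on UMIs 960 genes were higher and 849 lower, with at most 10% mitochondrial UMIs 955 and 715, and with the rule genes left out of the totals 1211 and 1155. Of the genes described below, Fcgbp, Scin, Krt20, Lypd8, Hspa8 and Ano1 lost their call with at most 10% mitochondrial UMIs. At that limit duodenum had 7 dividing barcodes and was not fitted, so the limit and the loss of a library cannot be told apart. Hspa8 and Ano1 also lost their call when duodenum alone was left out. With totals alone as scale, in place of edgeR's trimmed mean factors, the median log2 fold over all genes moved to 0.20 from -0.03 and the calls to 2191 higher (21.9%) and 515 lower (5.15%). Without ileum, 774 of 9518 genes (8.13%) were higher and 549 (5.77%) lower. A gene is therefore said to have risen or fallen below only if it passed on both scales, unless the text says otherwise.

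Of the secreted mucus genes, Clca1, Fcgbp and Klk1 fell in dividing barcodes. They were 3 of the 7 list members tested that took no part in the rule, of which 0 passed upward, beside 11.4% of all genes lower and 12.5% higher. Without ileum 1 of the list, Itln1, passed upward (over the 4 libraries log2 fold 1.04, adjusted p = 0.181). The median log2 fold over the 7 was -0.30 against -0.03 over all genes (-0.06 against 0.20 on totals alone). The values of the 5 rule genes also chose the barcodes, so their folds are given as a description with no test. Zg16 took a median of 1.0% of the UMIs of a dividing ileal barcode (quartiles 0.234% and 4.52%), against 7.48% of a non-dividing one (0.712% and 14.8%). The 2 distributions overlapped widely, since non-dividing barcodes reached from 0 to 32.9% and dividing ones from 0 to 11.6%. In summed counts, dividing against non-dividing barcodes, Zg16 was at 25231 against 114948 CPM in ileum, 27656 against 96397 in duodenum, 2092 against 5600 in colon and 3906 against 17792 in rectum. It was lower in each of the 4 libraries (log2 fold -2.13 ± 0.16 SE).

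**Figure D1:**
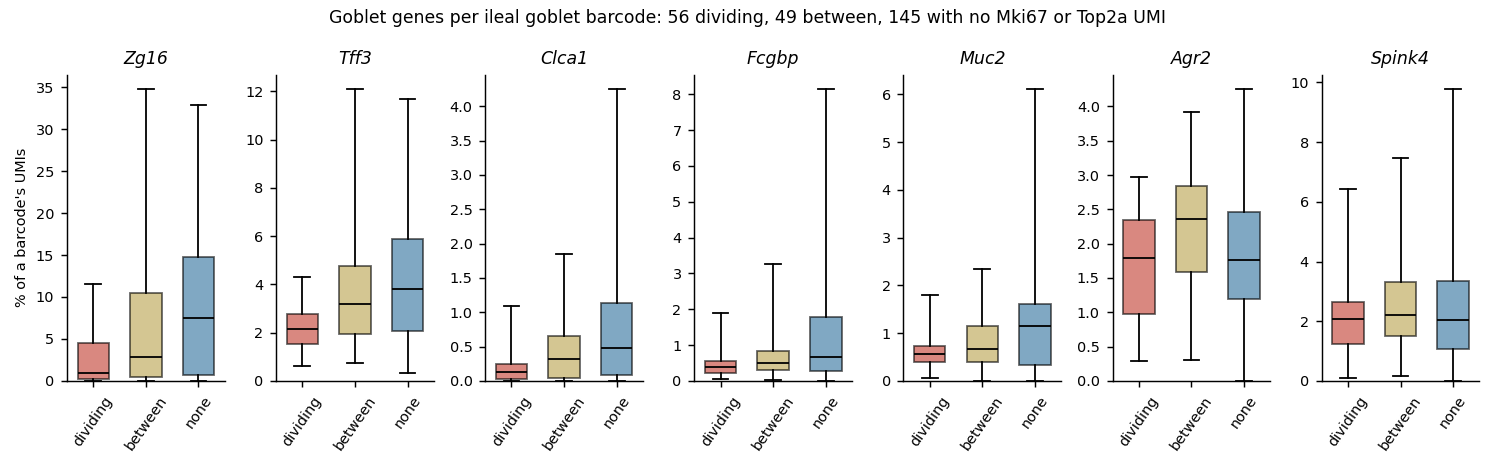
Share of each ileal goblet barcode's UMIs taken by 7 goblet genes, in percent, for 56 dividing barcodes, 49 between and 145 with no Mki67 or Top2a UMI. Boxes give quartiles and the median, whiskers the lowest and highest barcode; median Zg16 is 1.0% in dividing and 7.48% in non-dividing barcodes, while the medians of Agr2 and Spink4 differ little.

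Clca1 fell, at 1946 against 9401 CPM in ileum, 1795 against 8051 in duodenum, 112 against 468 in colon and 2614 against 6499 in rectum (log2 fold -2.19 ± 0.18 SE, adjusted p = 1.45e-05). Tff3 stood at 19925 against 51255 CPM in ileum, 17926 against 47453 in duodenum, 1372 against 2539 in colon and 2821 against 10899 in rectum (log2 fold -1.63 ± 0.16 SE). For Fcgbp the values were 3632 against 14970 CPM in ileum, 9140 against 27012 in duodenum, 458 against 852 in colon and 2001 against 3706 in rectum (log2 fold -1.58 ± 0.21 SE, adjusted p = 4.18e-04). In ileum these 4 genes were 4.56-fold, 4.83-fold, 2.57-fold and 4.12-fold lower in dividing barcodes, in that order. Muc2 was at 5867 against 13497 CPM in ileum, 4270 against 9223 in duodenum, 14354 against 31762 in colon and 5687 against 8529 in rectum (log2 fold -1.24 ± 0.14 SE). Klk1 stood at 884 against 1689 CPM in ileum, 815 against 1370 in duodenum, 2120 against 5280 in colon and 2294 against 4099 in rectum (log2 fold -1.19 ± 0.12 SE, adjusted p = 7.81e-05).

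Median shares of Agr2 and Spink4 were close between the states in ileum. Agr2 took a median of 1.79% of a dividing and 1.76% of a non-dividing barcode's UMIs, and Spink4 2.07% and 2.03%. In summed counts Agr2 was at 17568 against 19795 CPM in ileum, 12465 against 20556 in duodenum, 8928 against 15477 in colon and 8563 against 9737 in rectum (log2 fold -0.70 ± 0.14 SE). Spink4 was at 20986 against 23903 CPM in ileum, 13050 against 19723 in duodenum, 16821 against 30286 in colon and 16235 against 17257 in rectum (log2 fold -0.66 ± 0.14 SE). Retnlb, with 1111 against 675 CPM in ileum and 11460 against 26173 in colon, did not pass (adjusted p = 0.387), nor did Reg4, a lectin of secretory cells (258 against 152 CPM in ileum, adjusted p = 0.884). The calls of Clca1, Fcgbp and Klk1 held with high doublet scores left out, with barcodes matched on UMIs and over the 3 libraries other than ileum. All 3 were lost without the library term. That of Fcgbp was also lost with at most 10% mitochondrial UMIs and with rule genes of at least 5%, where only ileum and colon were fitted.

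**Figure D2:**
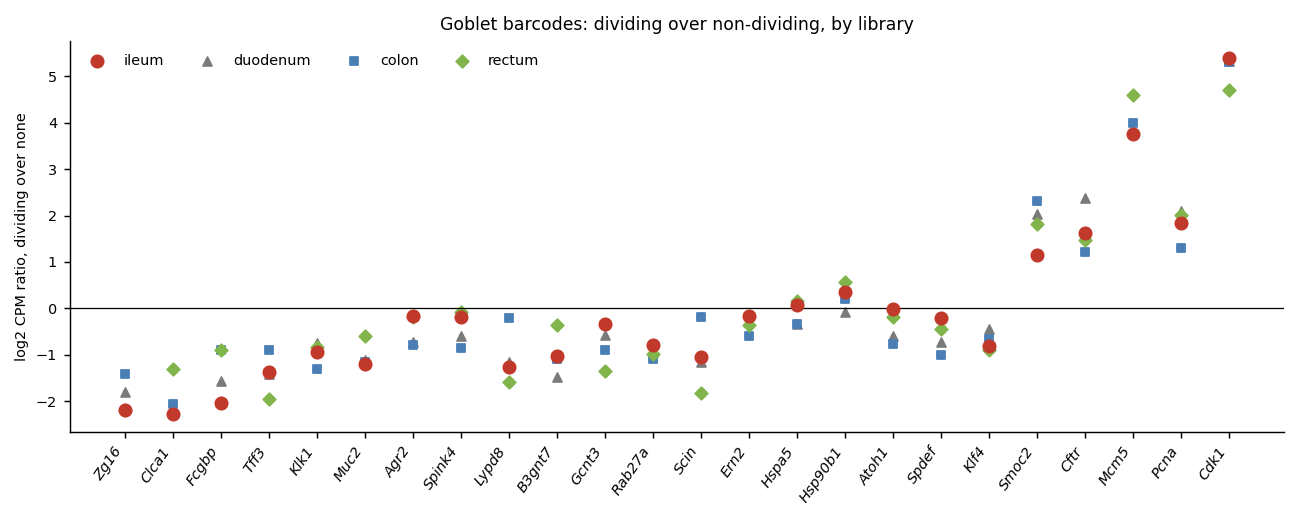
Log2 ratio of CPM, dividing over non-dividing goblet barcodes, for 24 genes in ileum (large red circles), duodenum, colon and rectum; the line at 0 marks equal CPM. Points are left out where a state had no UMI. Zg16 and Clca1 lie below 0 in all 4 libraries, Hsp90b1 has points on both sides of 0, and Mcm5 and Cdk1 lie above 0 wherever they are drawn.

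Genes that add sugars and sulfate to mucin were lower in dividing barcodes as a group. Of 31 tested, 18 passed downward and 0 upward (median log2 fold -0.64), beside 11.4% and 12.5% of all genes. On totals alone 10 of the 18 held, where 5.15% of all genes were lower. With barcodes matched on UMIs 13 of the 18 held. Among those 10, Gcnt3, which branches the O-glycans, was at 270.4 against 343 CPM in ileum, 225 against 336 in duodenum, 307 against 568 in colon and 82.7 against 211 in rectum (log2 fold -1.0 ± 0.15 SE, adjusted p = 7.89e-04). B3gnt7, which extends them, was at 21.1 against 43.1 CPM in ileum (log2 fold -1.07 ± 0.18 SE, adjusted p = 0.00207). Galnt6 and Galnt7, which attach or follow the first sugar, stood at 156 against 222 and 401 against 466 CPM in ileum, with log2 folds of -0.94 ± 0.12 and -0.69 ± 0.12. The sulfotransferase Chst4 was at 60.0 against 95.2 CPM in ileum (log2 fold -0.90 ± 0.13 SE, adjusted p = 6.15e-04). Some called members were nearly absent from ileal goblet barcodes, so their calls rest on other libraries: Fut2 (0.3 CPM over all ileal goblet barcodes), St6galnac6 (0.3) and B3galt5 (2.4). In ileum alone 2 of 27 members with 50 UMIs were at least 2-fold lower, against 2.99% of all 7714 such genes, and 0 were 2-fold higher, against 13.3%.

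Granule exocytosis genes were lower too. Of 12 tested, 9 passed downward and 0 upward (median log2 fold -0.74), beside 11.4% and 12.5% of all genes. With barcodes matched on UMIs 8 held, and on totals alone 6, where 5.15% of all genes were lower. The small GTPases that dock granules were among these 6. Rab27a was at 40.6 against 69.7 CPM in ileum, 41.8 against 79.8 in duodenum, 17.4 against 36.8 in colon and 23.1 against 45.4 in rectum (log2 fold -1.17 ± 0.14 SE, adjusted p = 1.94e-04), and Rab27b at 151 against 222 CPM in ileum (log2 fold -1.16 ± 0.14 SE, adjusted p = 2.57e-04). Their effector Sytl2 stood at 108 against 230.2 CPM in ileum (log2 fold -1.28 ± 0.15 SE, adjusted p = 1.57e-04). The actin-severing Scin was at 220.2 against 455 CPM in ileum, 291 against 644 in duodenum, 44 against 50.4 in colon and 68.1 against 242 in rectum (log2 fold -1.27 ± 0.21 SE, adjusted p = 0.00199), and the calcium sensor Syt7 at 41.8 against 60.9 CPM in ileum (log2 fold -0.93 ± 0.15 SE, adjusted p = 0.00123).

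For chaperones and folding enzymes of the endoplasmic reticulum the calls depended on the scale. Of 30 tested, 10 passed downward on the trimmed mean scale (median log2 fold -0.35), beside 11.4% of all genes. Without ileum 5 did, beside 5.77% of all genes. On totals alone 0 did, beside 5.15%, the median was -0.11 and Txndc16 passed upward. Hspa5 (BiP, the main chaperone) was at 2167 against 2059 CPM in ileum, 1862 against 2355 in duodenum, 1067 against 1347 in colon and 1299 against 1164 in rectum, which did not pass (adjusted p = 0.0737). Hsp90b1 (GRP94) stood at 1759 against 1377 CPM in ileum, 1609 against 1695 in duodenum, 966 against 841 in colon and 1225 against 824 in rectum (adjusted p = 0.902). Xbp1, the stress-induced transcription factor of secretory cells, was at 436 against 484 CPM in ileum, and Ern2 at 97.2 against 109. Both passed on the trimmed mean scale (adjusted p = 0.00781 and 0.00569) but not on totals alone (0.0745 and 0.0764). In ileum 0 of 28 such genes differed 2-fold either way.

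**Figure D3:**
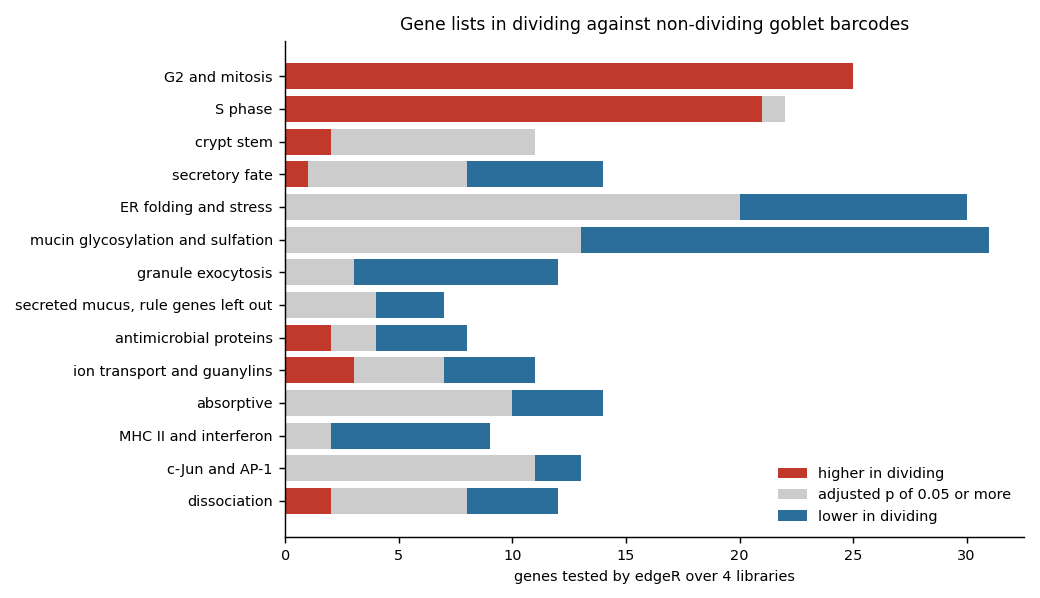
Number of genes of each list tested by edgeR over 4 libraries that were higher in dividing goblet barcodes (red), lower (blue) or at an adjusted p of 0.05 or more (grey). All 25 G2 and mitosis genes are higher, and 3 of 7 secreted mucus genes are lower once the rule genes are left out, as drawn.

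The folding genes are known for a shared promoter element, the endoplasmic reticulum stress element (CCAAT, then 9 bases of any kind, then CCACG), bound by NF-Y and ATF6. In RefSeq's promoter windows (GRCm38.p6, 250 bases before to 50 after each gene's start, both strands searched) it was found in 8 of 27 list members with a window (29.6%) and in 39 of 32851 windows in all (0.119%). A list member counted if any window of that gene held the element, whereas the share over all is per window. The stretches of Hspa5 and Pdia6 are shown because both are chaperone genes whose difference between states did not pass, each as the 120 bases before the start on the gene's strand with the element in capitals. The stretch of Hspa5 is chr2:34771970-34772089 (+) and that of Pdia6, a disulfide isomerase, chr12:17266469-17266588 (+).
Hspa5: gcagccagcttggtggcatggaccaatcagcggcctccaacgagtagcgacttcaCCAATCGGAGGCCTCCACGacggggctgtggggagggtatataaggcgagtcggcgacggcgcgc
Pdia6: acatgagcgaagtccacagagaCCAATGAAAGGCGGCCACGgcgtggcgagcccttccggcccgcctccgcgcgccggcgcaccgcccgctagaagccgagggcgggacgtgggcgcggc
Of 8 secreted mucus genes with a window 0 held it, a statement about these letters in these windows only. Pdia6 was at 919 against 817 CPM in dividing and non-dividing ileal barcodes (adjusted p = 0.142).

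Regulators of secretory fate were present in both states. Of 14 tested, 6 passed downward and 1 upward, of which 3 (Spdef, Klf4 and Foxa3) and the 1 (Notch1) held on totals alone. Without ileum 4 passed downward. Of all genes 11.4% passed downward and 12.5% upward, or 5.15% and 21.9% on totals alone. Atoh1 was at 247 against 249.7 CPM in ileum, 118 against 178 in duodenum, 160.4 against 272 in colon and 287 against 328 in rectum and did not hold on totals alone (adjusted p = 0.0105, and 0.0872 on totals). Spdef, which acts after ATOH1 in goblet maturation, was at 169 against 194 CPM in ileum, 104 against 170.3 in duodenum, 303 against 605 in colon and 122 against 167 in rectum (log2 fold -0.82 ± 0.14 SE, adjusted p = 0.00219). Klf4, needed for terminal goblet differentiation in mouse colon, stood at 491 against 863 CPM in ileum, 777 against 1049 in duodenum, 524 against 824 in colon and 713 against 1326 in rectum (log2 fold -0.93 ± 0.12 SE, adjusted p = 3.56e-04). Foxa3 was at 166 against 207 CPM in ileum (log2 fold -0.80 ± 0.12 SE, adjusted p = 9.31e-04). Notch1, the receptor that holds back secretory fate, rose, at 5.07 against 1.35 CPM in ileum, 13.9 against 0 in duodenum, 23.8 against 2.34 in colon and 8.52 against 3.1 in rectum (log2 fold 2.48 ± 0.45 SE, adjusted p = 0.003). The Notch ligand Dll1 was at 105 against 96.2 CPM in ileum (adjusted p = 0.873). In thinned ileal barcodes, Atoh1 was seen in 22 of 56 dividing (39.3%) and 40 of 113 non-dividing ones (35.4%).

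Cell cycle genes are tied to the 2 genes that set the states, and serve as a check of them. Of 22 S phase genes 21 rose, with a median log2 fold of 2.73, and all 25 G2 and mitosis genes rose, with a median of 5.20. The helicase subunit Mcm5 was at 49.9 against 3.7 CPM in ileum and the clamp Pcna at 136 against 37.7. Cdk1, the mitotic kinase, stood at 155 against 3.7 CPM in ileum, 61.7 against 1.53 in duodenum, 85.5 against 2.14 in colon and 145 against 5.51 in rectum (log2 fold 4.89 ± 0.19 SE, adjusted p = 2.13e-07). Among genes that passed and were higher in all 4 libraries, the 15 largest folds were those of Kif15, Kntc1, Kif14, Hmmr, BC055324, Gtse1, Sapcd2, Bub1, Ttk, Plk1, Cenpf, Anln, Tpx2, Esco2 and Kif18b. Of these Cenpf, a kinetochore protein, was at 155 against 1.68 CPM in ileum, 81.7 against 0 in duodenum, 127 against 1.36 in colon and 213 against 1.38 in rectum (log2 fold 6.54 ± 0.22 SE, adjusted p = 1.91e-07). Tpx2, a spindle assembly factor, was at 82.8 against 0.673 CPM in ileum, 59.8 against 0 in duodenum, 63.1 against 0.39 in colon and 85.2 against 1.38 in rectum (log2 fold 6.44 ± 0.28 SE, adjusted p = 3.46e-07). The kinesin Kif15 had 107 UMIs (45.2 CPM) in dividing ileal barcodes and 0 in non-dividing ones.

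Many mitotic genes carry the cell cycle homology region TTTGAA near their start, where DREAM and B-MYB complexes act. These letters were in 15 of the 21 G2 and mitosis genes with a RefSeq window (71.4%), in 3 of 18 S phase genes (16.7%), in 0 of 8 secreted mucus genes and in 17.9% of all 32851 windows. Genes again counted by any window of theirs, and the last share is per window. Genes that rose are shown in the same way, with the letters in capitals, as examples of the group with the highest median fold. They are Cdk1 at chr10:69352913-69353032 (-), the anaphase activator Cdc20 at chr4:118437344-118437463 (-) and the ubiquitin-conjugating Ube2c at chr2:164769809-164769928 (+), where the match is on the other strand and reads TTCAAA.
Cdk1: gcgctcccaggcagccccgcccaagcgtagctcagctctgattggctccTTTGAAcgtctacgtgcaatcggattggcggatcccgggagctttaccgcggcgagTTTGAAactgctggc
Cdc20: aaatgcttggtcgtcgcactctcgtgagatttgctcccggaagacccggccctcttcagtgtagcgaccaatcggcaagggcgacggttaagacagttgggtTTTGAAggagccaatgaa
Ube2c: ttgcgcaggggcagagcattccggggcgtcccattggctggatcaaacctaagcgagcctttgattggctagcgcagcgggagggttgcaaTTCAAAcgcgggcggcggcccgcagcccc
In dividing against non-dividing barcodes Cdc20 was at 131 against 4.37 CPM in ileum, 49.8 against 1.53 in duodenum, 71.4 against 1.36 in colon and 79.1 against 2.75 in rectum, and Ube2c at 382 against 14.1 CPM in ileum. A match is a description of the letters and not a measured binding site.

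Among genes that passed and were lower in all 4 libraries, the 15 largest falls included Clca1, already given. Spink1, Rbp2, Anpep, Ddx60, Ifi27l2a, Rhoc, Apol7a, Proc, Ly6g2, Fam3b and Enpp3 were among them too. The rule gene Zg16 ranked among the 15 as well, but its fold is a description with no test. The trypsin inhibitor Spink1 was at 31.7 against 162 CPM in ileum, 17.9 against 123 in duodenum, 2.86 against 33.5 in colon and 495 against 3989 in rectum (log2 fold -3.09 ± 0.17 SE, adjusted p = 1.17e-06). The GTPase Rhoc was at 8.03 against 61.9 CPM in ileum, 21.9 against 72.1 in duodenum, 15.5 against 38.8 in colon and 8.52 against 41.6 in rectum (log2 fold -2.21 ± 0.27 SE, adjusted p = 2.57e-04). The secreted Fam3b stood at 11.8 against 60.9 CPM in ileum, 13.9 against 73.6 in duodenum, 54.3 against 137 in colon and 10.9 against 34.8 in rectum (log2 fold -2.0 ± 0.22 SE, adjusted p = 1.15e-04), and Enpp3, which marked goblet barcodes within the ileal epithelium, at 43.9 against 149 CPM in ileum, 69.7 against 265 in duodenum, 2.62 against 4.48 in colon and 2.43 against 11 in rectum (log2 fold -1.99 ± 0.20 SE, adjusted p = 6.46e-05).

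Of 14 absorptive genes tested, 4 fell in dividing barcodes and 0 rose, beside 11.4% of all genes lower (5.15% on totals alone). With DESeq2 the call of Apoa1 was lost (adjusted p = 0.829) and Sis had a log2 fold of 0.019 (adjusted p = 0.997). Without ileum 2 of these 4 could be fitted, and both passed. Apoa1, the apolipoprotein of lipid transport, was at 16.9 against 426 CPM in ileum (log2 fold -3.97 ± 0.50 SE, adjusted p = 4.90e-04), the retinol carrier Rbp2 at 7.18 against 41.7, the aminopeptidase Anpep at 7.61 against 101 and sucrase-isomaltase (Sis) at 38.9 against 128. These genes are far higher in the other ileal epithelium, with Apoa1 at 5346 CPM there and 36.2 in ileal immune barcodes. A single goblet barcode held 40.8% of the 1330 ileal Apoa1 UMIs, and a single one 83.4% of the 826 in duodenum. Colon had 3 Apoa1 UMIs and rectum 0, so the Apoa1 call rests on ileum and duodenum. With 7 ileal goblet barcodes of high doublet score left out, among others, Apoa1 still passed (log2 fold -2.77), as did Rbp2 and Anpep (the last lost its call without duodenum), while Sis did not (adjusted p = 0.148). Krt20, a keratin of differentiated villus cells, fell too, with 231 against 567 CPM in ileum, 129 against 552 in duodenum, 30.5 against 33.3 in colon and 2.43 against 34.4 in rectum (log2 fold -1.59 ± 0.32 SE, adjusted p = 0.00603).

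Interferon-responsive genes were lower in dividing barcodes. Of 9 tested members of the MHC class II and interferon list, 7 fell and 0 rose, beside 11.4% of all genes lower (5.15% on totals alone). All 7 held with high doublet scores left out and with barcodes matched on UMIs. The ubiquitin-like Isg15 was at 116 against 357 CPM in ileum, 195 against 345 in duodenum, 2.38 against 5.84 in colon and 0 against 2.06 in rectum (log2 fold -1.57 ± 0.21 SE, adjusted p = 4.21e-04). The transcription factor Irf7 stood at 98.9 against 262 CPM in ileum, 102 against 219 in duodenum, 22.9 against 32.3 in colon and 7.3 against 17.2 in rectum (log2 fold -1.30 ± 0.19 SE, adjusted p = 7.33e-04) and Oasl2 at 82.4 against 162 CPM in ileum. The mitochondrial Ifi27l2b was at 1027 against 2429 CPM in ileum. Antigen presentation genes were low in ileal goblet barcodes: Cd74 was at 15.2 against 20.9 CPM and H2-Ab1 at 11.4 against 34, beside 14421 and 3643 CPM in ileal immune barcodes. The part of free RNA in the last pair was not tested. Lypd8, which keeps flagellated bacteria off the surface, fell as well, at 2882 against 6898 CPM in ileum, 3378 against 7566 in duodenum, 805 against 924 in colon and 791 against 2387 in rectum (log2 fold -1.29 ± 0.20 SE, adjusted p = 0.00138).

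Ion transport genes were split. Of 11 tested 3 passed upward and 4 downward, beside 12.5% and 11.4% of all genes. On totals alone 21.9% of all genes were higher and 5.15% lower. Cftr, the chloride channel, was at 35.5 against 11.4 CPM in ileum, 39.8 against 7.67 in duodenum, 96.4 against 41.3 in colon and 31.6 against 11.4 in rectum (log2 fold 1.25 ± 0.17 SE, adjusted p = 5.76e-04), a call lost with barcodes matched on UMIs (log2 fold 0.60, adjusted p = 0.122). The bicarbonate cotransporter Slc4a4 was at 27.5 against 8.75 CPM in ileum, 31.9 against 21.5 in duodenum, 114 against 36.6 in colon and 38.9 against 22.4 in rectum (log2 fold 1.11 ± 0.20 SE, adjusted p = 0.00314), and the potassium channel Kcnq1 at 14.8 against 4.37 CPM in ileum, 31.9 against 6.14 in duodenum, 44.8 against 8.37 in colon and 10.9 against 3.79 in rectum (log2 fold 1.89 ± 0.25 SE, adjusted p = 4.67e-04). Of the 4 downward, Slc26a6, Best2 and Guca2a held on totals alone. Best2 had 0 UMIs in ileal goblet barcodes and Ano1, the fourth, had 5, so these calls rest on other libraries. Guca2a (guanylin) was at 3580 against 4572 CPM in ileum, 1906 against 4064 in duodenum, 1192 against 2167 in colon and 630.1 against 841 in rectum (log2 fold -0.91 ± 0.14 SE, adjusted p = 0.00123). Of 8 antimicrobial genes tested, 2 passed upward and 4 downward, beside 12.5% and 11.4% of all genes. On totals alone 2 and 3 did, beside 21.9% and 5.15%. The 3 were Lypd8, already given, Reg3a and Reg3b (log2 folds -3.10 and -2.27, adjusted p = 0.00116 and 0.00745 on the trimmed mean scale). Reg3a lost its call with high doublet scores left out and with DESeq2, and Reg3b with DESeq2 and without ileum. Of the 2 upward, the scavenger receptor Dmbt1 was at 63 against 2.36 CPM in ileum, 368 against 98.2 in duodenum, 1152 against 374 in colon and 94.9 against 16.2 in rectum (log2 fold 2.10 ± 0.31 SE, adjusted p = 8.42e-04).

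Crypt stem genes were low in ileal goblet barcodes. Of 11 tested 2 passed upward and 0 downward, and 6 upward on totals alone, beside 12.5% and 21.9% of all genes higher on these scales. Smoc2 was at 58.7 against 26.6 CPM in ileum, 37.8 against 9.2 in duodenum, 22.1 against 4.48 in colon and 32.8 against 9.29 in rectum (log2 fold 1.46 ± 0.24 SE, adjusted p = 0.00203) and the WNT target Axin2 at 24.1 against 13.1 CPM in ileum, 7.97 against 0 in duodenum, 29.3 against 11.3 in colon and 15.8 against 7.57 in rectum (log2 fold 0.97 ± 0.27 SE, adjusted p = 0.0258), which lost its call with DESeq2 (adjusted p = 0.0857), without colon (0.165) and without rectum (0.0615). Olfm4, a marker of ileal stem and progenitor cells, stood at 343 against 204 CPM in ileum and was almost unseen in colon (0.238 against 0.195). It passed on totals alone (adjusted p = 0.0169) and not on the trimmed mean scale (0.0943). Lgr5 was at 4.5 CPM over all 250 barcodes, beside 21 in the other ileal epithelium.

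Because the study's title names c-Jun, its genes were read in these states. Jun was at 1272 against 1278 CPM in ileum, 1088 against 1200 in duodenum, 1361 against 1185 in colon and 2008 against 1905 in rectum (adjusted p = 0.254), Fos at 1481 against 1496 CPM in ileum (adjusted p = 0.643) and Atf3 at 780.5 against 816 (adjusted p = 0.421). Of 13 genes of the c-Jun and AP-1 list, 2 passed downward, near the share of all genes that did (11.4%), and of them Junb held on totals alone (400.2 against 499 CPM in ileum, 313 against 535 in duodenum, 391 against 459 in colon and 518 against 672 in rectum; log2 fold -0.65 ± 0.13 SE, adjusted p = 0.00525) and Jund did not. Both Jun and Fos are also induced by tissue dissociation. Of 12 dissociation genes 2 rose (Hsp90aa1 and Hspa8), beside 12.5% of all genes higher, or 21.9% on totals alone. Another 4 passed downward, 1 of them (Dusp1) also on totals alone, beside 11.4% and 5.15% of all genes. The calls of Hspa8 and Dusp1 were lost without ileum, and that of Hspa8 also without duodenum and without rectum. Over all ileal goblet barcodes Jun stood at 1369 CPM, beside 717 in the other ileal epithelium, and Fos at 1576 beside 683.

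Goblet barcodes were next ordered by how much of their RNA was mucus. The 195 with at least 5000 UMIs were cut into 3 equal bands of the rule genes' share, with medians of 6.31%, 13.0% and 29.6%, and levels were computed without the rule genes. The bands are a description, as the rule genes made them. Their median depths were 31421, 33390 and 36022 UMIs, and their mitochondrial shares 6.48%, 4.94% and 3.47%. The part of the mitochondrial share in the levels by band was not tested. Dividing barcodes numbered 32, 24 and 0 of 65, from the lowest band to the highest. Clca1 was at 1241, 4981 and 18525 CPM over the bands, Klk1 at 603, 1565 and 3153, Lypd8 at 2599, 5082 and 13288, and Isg15 at 97.1, 213 and 776. Hspa5 varied less, at 2230, 2939 and 2858 CPM, as did Atoh1 at 261, 314 and 359. Levels of Olfm4 ran the other way, at 554, 281 and 5.37 CPM, and so did those of Mmp7, the protease that activates defensins, at 556, 403 and 95.3.

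**Figure D4:**
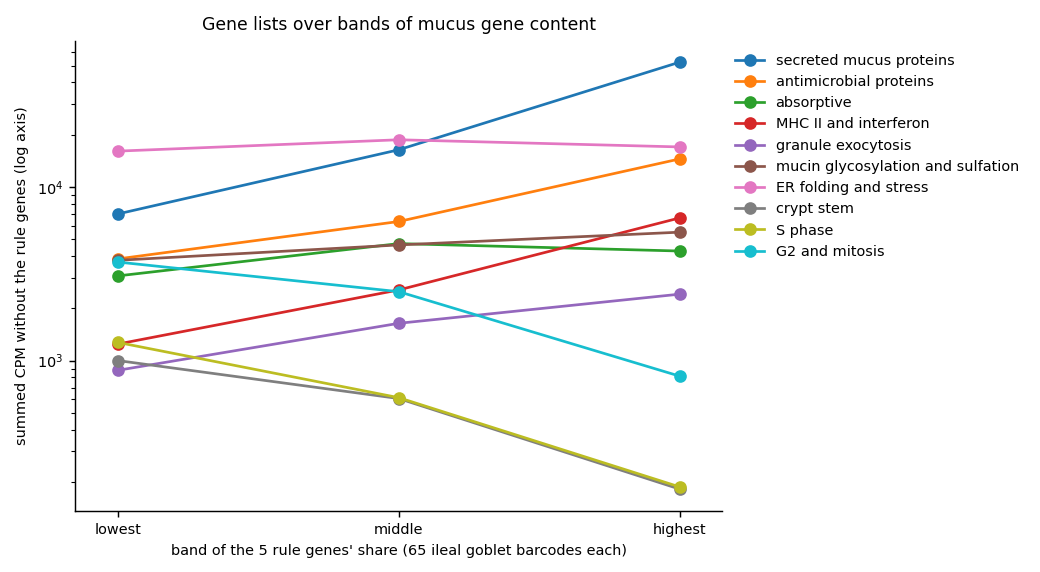
Summed CPM of 10 gene lists (log axis, rule genes left out) in the lowest, middle and highest band of the rule genes' share, 65 ileal goblet barcodes each. The summed secreted mucus list climbs from 6992 to 52407 CPM over the bands, the list of endoplasmic reticulum folding stays between 16092 and 18711, and S phase and stem lists decline.

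The lists repeat this split. Secreted mucus genes other than the rule genes summed to 6992, 16389 and 52407 CPM from the lowest to the highest band, granule genes to 880, 1641 and 2416, and interferon and MHC genes to 1246, 2555 and 6643. Most of the mucus sum in the highest band was Clca1, already given, and Fcgbp (3252, 7735 and 28775 CPM). Of the same list, Retnlb stood at 799, 1276 and 1232 CPM, and Itln1 at 755, 388 and 426. Folding genes summed to 16092, 18711 and 17014 CPM. S phase genes summed to 1275, 612 and 187 CPM. Genes leading the highest band over the lowest were Gsta4, S100a6, AW112010, Clca1, Ces1c, Apoc2, Tm4sf4 and Ddx60. The lowest band was led by Clca3b, Olfm4, Ube2c, Pclaf, Mki67, Birc5, Rnase1 and Stmn1.

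Mucus genes also went together among barcodes that did not divide. Across 99 non-dividing ileal goblet barcodes with at least 5000 UMIs, which share 1 library, the Spearman correlation of Zg16 with Clca1 was 0.88, with Tff3 0.86, with Muc2 0.85 and with Fcgbp 0.81. With Krt20 it was 0.73 and with Lypd8 0.86. It was lower with Agr2 (0.23), Spink4 (0.24), Atoh1 (0.14) and Hspa5 (-0.08). Agr2 in turn went most with Hspa5 (0.56) among the genes read. These are descriptions across barcodes of unequal depth, and barcodes are not replicates.

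Clustering of the 250 barcodes gave 6 groups, named by number and leading genes, and reported with no test since the same genes made them. Group 1 (81 barcodes, 36 dividing) was led by the defensins Defa17 and Defa3, Dmbt1, Rnase1 and Reg4, with Zg16 at 28546 CPM. Group 2 (66 barcodes, 0 dividing) had the most mucus, with Zg16 at 168129, Clca1 at 13328 and Fcgbp at 22480 CPM, yet was led by enterocyte genes, Apoa1 at 672 and Fabp6 at 2956 CPM. All 7 ileal goblet barcodes with a high doublet score lay in it. Group 3 (40 barcodes, 18 dividing, median 10286 UMIs) was led by Aurkb, Birc5 and Pclaf. Group 4 (34 barcodes, 2 dividing) was led by Cxcl10, F3, Flrt3 and Atf3, the last at 2432 CPM, and held Jun at 2977 and Fos at 2988 CPM, beside 968 and 1244 in group 2. Group 5 (15 barcodes) was shallow, at a median of 1592 UMIs, with Retnlb at 9320 and Spink4 at 87224 CPM. Group 6 (14 barcodes, median 2180.5 UMIs) was led by Spata7, Olfm4 (6091 CPM) and Cd44 and had the least Zg16 (2594 CPM).

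Ileal goblet barcodes were then set beside goblet barcodes of the other segments, by size alone. Of 11013 genes 33 (0.3%) were at least 2-fold above the highest of the other 4 libraries and 59 (0.536%) at least 2-fold below the lowest. Fabp6, the bile acid binding protein of the ileum, had the widest gap, with 895 CPM in ileum, 0 in duodenum, 0.859 in jejunum, 59.2 in colon and 5.92 in rectum. Thinned to 2000 UMIs, 24.4% of ileal goblet barcodes had a UMI of Fabp6, and 33.9% of ileal immune barcodes, which should lack it. The share is therefore not read as expression by goblet barcodes, and the part of free RNA was not tested. The level of Fabp6 was 895 CPM in goblet and 179 in immune barcodes. A single barcode held 31.3% of the ileal goblet UMIs of Fabp6, and a single colonic one 94.2% of those in colon. Serpina1b was spread more widely, over 167 of the 250 barcodes with 3.57% in the fullest, and stood at 379 CPM in ileum, 29.8 in duodenum, 52.4 in jejunum, 0 in colon and 0.683 in rectum. It was low in the other ileal epithelium (5.4 CPM) and in ileal immune barcodes (0.677).

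**Figure D5:**
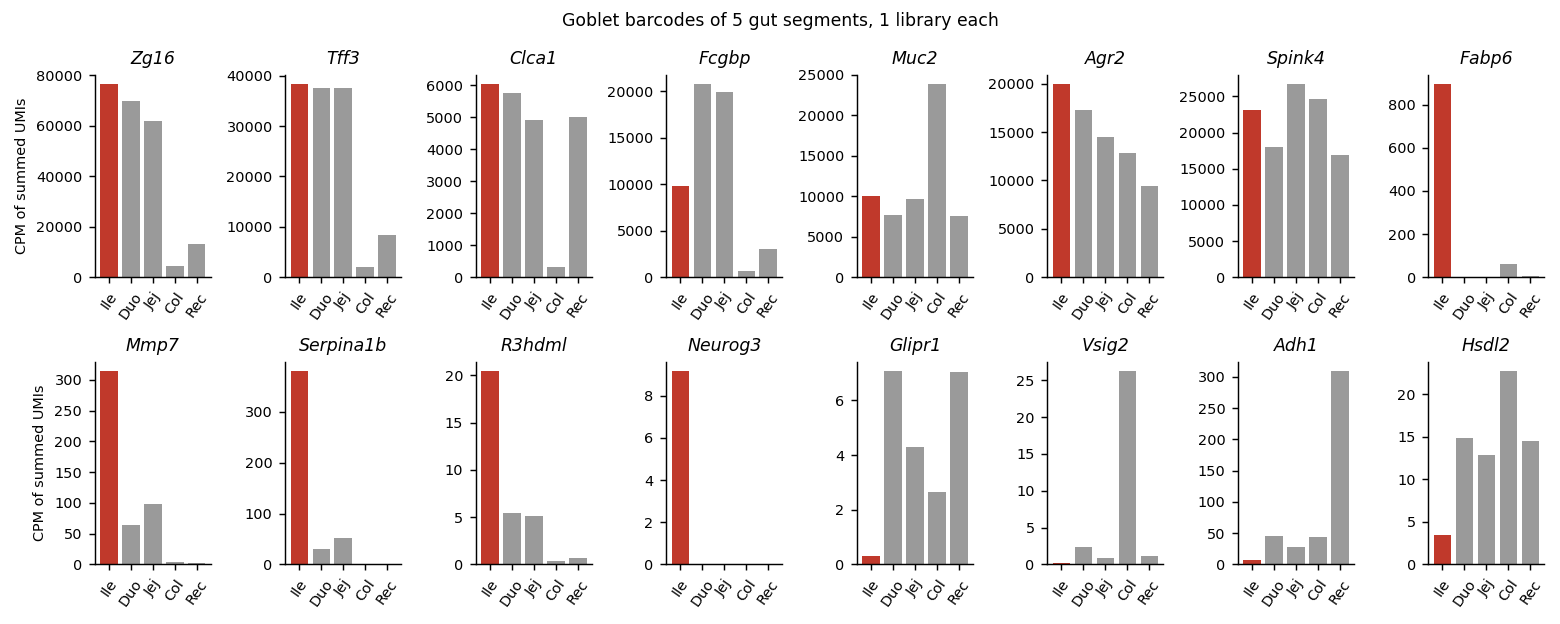
CPM of summed UMIs for 16 genes in goblet barcodes of ileum (red), duodenum, jejunum, colon and rectum (grey), 1 library each and so without error bars; each panel has its own axis from 0. Zg16 and Tff3 are high in the 3 libraries of the small intestine, Fabp6 and Serpina1b are highest in ileum, and Glipr1 and Hsdl2 lowest in ileum.

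Of the 10 widest gaps upward 4 were defensins, although barcodes with 5% of defensin UMIs had been left out. Defa17 was at 135 CPM in ileum, 18.8 in duodenum, 30.1 in jejunum, 0 in colon and 0 in rectum, and Defa27 at 16.2 CPM in ileum and 0 elsewhere. A single barcode held 70.4% of the Defa27 UMIs, and a single barcode held 31.7% of those of Defa17. Defensins as a whole stood at 2665 CPM in ileal goblet barcodes, 220 in ileal immune barcodes and 627454 in the 34 ileal barcodes above the 5% limit. Mmp7 per defensin UMI was 0.118, 0.00615 and 0.00168 in these 3 groups. For Lyz1 the order differed, at 0.163, 0.371 and 0.0791 per defensin UMI, with immune barcodes highest. After thinning, Defa24 was seen in 37.6% of ileal goblet and 21.4% of ileal immune barcodes. The part of free RNA in the defensin, Lyz1 and Mmp7 levels was not tested. Mmp7 itself, in 145 of the 250 barcodes, was at 314 CPM in ileum, 63.5 in duodenum, 97.9 in jejunum, 4.16 in colon and 1.59 in rectum, beside 145 in the other ileal epithelium. Also above were C2cd4a (74.7 CPM in ileum, 3.14 in duodenum, 6.87 in jejunum, 22 in colon and 21.2 in rectum), R3hdml (20.4 CPM in ileum, 5.49 in duodenum, 5.16 in jejunum, 0.378 in colon and 0.683 in rectum) and Map3k6, a stress-activated kinase (9.45 CPM in ileum, at most 2.5 elsewhere). Neurog3, the enteroendocrine fate gene, had 61 UMIs in ileum and 0 in the other goblet libraries, but all came from 3 barcodes.

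Genes lower in ileal goblet barcodes than in every other segment rested on few ileal UMIs, and some also on few UMIs or single barcodes elsewhere. The alcohol dehydrogenase Adh1 was at 6.6 CPM in ileum, 46.3 in duodenum, 27.5 in jejunum, 43.2 in colon and 309 in rectum. A single barcode held 67.8% of the 59 duodenal Adh1 UMIs, and a single one 71.9% of the 32 in jejunum. The gaps of Adh1 to these 2 segments are therefore not read as differences. Hsdl2, a peroxisomal dehydrogenase-like protein, was at 3.45 CPM in ileum, 14.9 in duodenum, 12.9 in jejunum, 22.7 in colon and 14.6 in rectum. In duodenum a single barcode held 52.6% of its 19 UMIs. Cmtm8 was at 2.1 CPM in ileum, 45.5 in duodenum, 12.9 in jejunum, 15.9 in colon and 54.2 in rectum. The glutathione transferases Gstm7 and Gstm6 were at 0.75 and 1.05 CPM in ileum, against at least 6.01 and 4.71 elsewhere. In jejunum they had 7 and 6 UMIs. Glipr1 had 2 UMIs in the ileal goblet barcodes and 5 in the jejunal ones. Vsig2, Cfap45, Pde1c and Lrrc8e had 1 each, and the lowest other library also had 1, so no difference is read from them.

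Among the mucus genes no member passed the 2-fold rule for ileum. Zg16 was at 76443 CPM in ileum, 69704 in duodenum, 61882 in jejunum, 4351 in colon and 12976 in rectum. Tff3 was at 38338 CPM in ileum, 37587 in duodenum, 37564 in jejunum, 2075 in colon and 8290 in rectum. In both, ileum lay beside duodenum and jejunum and above colon and rectum. Fcgbp was lower in ileum than in the upper segments, with 9833 CPM in ileum, 20780 in duodenum, 19959 in jejunum, 701 in colon and 3010 in rectum. For Muc2 the order put colon first (10021 CPM in ileum, 7679 in duodenum, 9617 in jejunum, 23848 in colon and 7517 in rectum), and for Retnlb ileum was lowest (931 CPM in ileum, 2039 in duodenum, 1712 in jejunum, 19944 in colon and 5510 in rectum). Depth and the share of dividing barcodes differ between these libraries, with dividing shares of 22.4% in ileum, 23.4% in duodenum, 16.7% in jejunum, 22.5% in colon and 12.1% in rectum, and their part was not tested. No interval for these differences can be given beyond counting error, which for ileal Zg16 runs from 76233 to 76653 CPM.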

How the data were processed

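Messenger RNA of single cells was counted in 5 libraries, 1 per gut segment. UMI counts of 32285 genes in each barcode were deposited as sparse matrices. Cell Ranger 7.2.0 wrote them, per the file headers, whereas version 4.0.0 of that tool stands in the submitters' processing notes beside Seurat and mm10. Per the labels' protocols, reads were 150-bp paired-end. Members and gene lists were chosen with earlier results of these data known.

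Barcodes were selected as the report states. Doublet scores came from Scrublet in scanpy 1.11.5, whose own threshold marked 4 ileal barcodes and so had not worked. As an alternative, as many of the highest-scoring barcodes as a usual doublet rate gives were left out (51 of 2522 in ileum, 7 of them goblet). UMIs were summed per library and state and tested with edgeR 4.0.16 (R 4.3.3; trimmed mean factors, filterByExpr, library as term, Benjamini-Hochberg over all genes; Mki67 and Top2a left out; at least 10 barcodes per state). DESeq2 1.42.0 was an alternative. The test was also run on simulated counts with known folds. Size comparisons used at least 50 UMIs, folds of 2 or 4 and a floor of 3 counts over the group. Named genes were list members, the 15 largest folds each way among genes that passed and went the same way in all 4 libraries, the 10 widest gaps each way and the 8 leading genes of bands and groups; mitochondrial, immunoglobulin, T cell receptor and unnamed genes were left out, and some genes that the rule names are not reported here. Groups came from Leiden clustering at resolution 0.5. Precision rests on library totals of 41953568 to 65546664 UMIs. Gene positions and promoter windows are RefSeq's (GRCm38.p6); no window was given for Zg16, Tff3, Spink4 or Clca1.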

Additional observations from a re-analysis of the deposited data

How the results depend on the processing

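Dividing and non-dividing sums were paired by library, with library as a term. The counts of genes higher and lower in dividing barcodes were 1255 and 1141, and with each library left out in turn they ran from 774 to 1061 and from 549 to 1091. The low ends came without ileum. Without the library term they were 601 and 112, with rule genes of at least 5% (ileum and colon fitted) 493 and 173, and on totals alone, a setting chosen after seeing the data, 2191 and 515. At most 10% mitochondrial UMIs, with duodenum not fitted, gave 715 genes lower. DESeq2 called 921 and 763. Of 252 named and list genes, 249 kept their call with RLE factors and 211 with barcodes matched on UMIs. Direction reversed for Sis with DESeq2 (log2 fold 0.019) and for Ang4 without rectum; leaving out each library gave -0.83 to 0.60 for Ang4. The goblet share of ileal epithelium was 26.7% with at most 10% mitochondrial UMIs, 15.7% with no such limit and 17.9% with rule genes of at least 5%. The dividing share was 42% with 1 or more Mki67 or Top2a UMIs and 5.63% after thinning. Rule genes in dividing over non-dividing barcodes stood at a ratio of 0.401. It was 0.354 and 0.396 with at most 10% and no limit on mitochondrial UMIs, 0.376 and 0.453 with rule genes of at least 1% and 5%, and 0.396 without doublets. With dividing barcodes at 5 or 1 UMIs it was 0.384 and 0.552, with depth matched 0.374 and over barcode means 0.481. Genes above every other segment numbered 33, or 71 with rule genes of at least 5%, 5 at 4-fold, 11 with 200 UMIs and 105 over barcode means. Genes below numbered 59, or 10 at 4-fold and 25 with 200 UMIs. Genes above other ileal epithelium numbered 304, or 142 at 8-fold. One library per segment and 11 dividing duodenal barcodes limit what these counts show.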
